A study of Mus musculus with 6 samples.

Results

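The genes described here make bile acids in the hepatocyte or carry bile acids, lipids and other organic solutes across its membrane. Of 33 genes listed by symbol, all 33 had a probe set with a single gene symbol among the 18193 genes named on the array, and all 33 were among the 12598 genes tested after dim probe sets were left out. They comprise 13 enzymes of bile acid synthesis, 6 uptake carriers of the blood-facing (sinusoidal) membrane, 4 exporters of that membrane, 8 transporters of the bile-facing (canalicular) membrane, and the receptor pair Fgfr4 and Klb. Where a gene had several probe sets, that with the highest mean over all 6 arrays stood for it. Both groups were male mice, 12 weeks old, given a diet of 60% sucrose for 1 week. The 3 ChLO livers came from animals with floxed Chrebp alleles and Cre driven by the albumin promoter, a promoter of hepatocytes, so that ChREBP was deleted in the liver. The 3 WT livers came from wild-type mice, and the sources used here do not say whether these carried Cre or floxed alleles. Frozen liver RNA from each mouse went on its own Affymetrix 3′ array, and the comparison asks which of these transcripts differed in ChLO livers under a sucrose load.

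Bile acids are made from cholesterol. The classical route starts with Cyp7a1 in the endoplasmic reticulum and the alternative route with Cyp27a1 in mitochondria, and both end with side-chain shortening in peroxisomes and coupling to taurine or glycine. Hepatocytes take bile acids back from portal blood, pump them into bile through Abcb11, and can send them back to blood through a separate set of exporters. The nuclear receptor FXR senses bile acids and restrains their synthesis, partly through the repressor SHP (Nr0b2) and, from the gut, through FGF15 acting on Fgfr4 and its co-receptor Klb.

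All values are log2 MAS5 signals, and a difference is ChLO minus WT on that scale. Array medians lay between 6.37 and 6.60, and pairs of arrays correlated at 0.894 to 0.954 over all genes tested. ChLO 3 correlated with WT 1, 2 and 3 at 0.936, 0.953 and 0.950, above its 0.932 with ChLO 2 and 0.898 with ChLO 1. ChLO 1 and ChLO 2 correlated at 0.951. The probe set of Mlxipl, the gene for ChREBP, read 12.61, 12.56 and 12.59 in WT 1, 2 and 3 and 10.34, 11.22 and 11.48 in ChLO 1, 2 and 3. All ChLO arrays thus lay below all WT arrays (difference -1.57, SE 0.28, limma adjusted p = 0.185), and the sources used here do not say whether the probes lie in the floxed part. ChLO 1 and 2 also stood apart from ChLO 3 in genes of other cell types, though not by every measure. The 10 stellate cell and fibroblast markers, all of them tested, stood at medians of 1.80 (ChLO 1) and 1.90 (ChLO 2) relative to WT, with ChLO 3 at -0.013 and the WT livers at -0.30 to 0.46. Summed as linear signals they gave 23433 for ChLO 1, 27593 for ChLO 2 and 8862 for ChLO 3, while WT livers gave 7126 to 11569. The 9 hepatocyte markers tested of 10 were all lower in ChLO (7 of 9 with arrays scaled to the hybridization spike-in controls and 6 of 9 with quantile normalization, which moved their median from -0.36 to -0.088), with medians of -0.47, -0.47 and -0.16 in ChLO 1, 2 and 3 and summed linear signals of 296170 to 371355 against 384258 to 443316 in WT. Cholangiocyte markers (6 tested of 10) summed to 1614, 846 and 381 in ChLO 1, 2 and 3 and to between 290.0 and 440 in WT, and myeloid markers (9 of 10) to 23574, 24226 and 13973 against 15076 to 15901. Endothelial markers (6 of 6) had medians of 0.29, 0.48 and -0.045 in ChLO 1, 2 and 3. Their sums were 6676, 9117 and 6993, against 6619 to 7828 in WT, so ChLO 1 was inside the WT range. Of the 6 cholangiocyte markers 5 had a higher mean in ChLO and 1 a lower mean. A single gene, Cldn4, gave 989, 273 and 80.3 of the cholangiocyte sum in ChLO 1, 2 and 3 and between 26.1 and 68.5 in WT. Its WT mean of 5.38 was under the filter level of 5.50, so Cldn4 passed the filter through its ChLO values. The other 5 markers, Cldn7 and Krt19 among them, gave 624, 574 and 301, against 264 to 371 in WT. The log2 gap between the 3′ and 5′ probe sets of Actb, which grows with RNA degradation, stood at 0.84 for ChLO 1, 1.03 for ChLO 2 and 1.46 for ChLO 3, with WT livers between 1.13 and 1.38. The same gap for Gapdh was -0.25, -0.20 and -0.14 in the ChLO livers, inside the WT range of -0.31 to -0.13. The part of these shifts in the values below was not tested, and in whole liver RNA fewer hepatocytes and less RNA per hepatocyte cannot be told apart.

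In ChLO livers 5 of 6 uptake carriers had a lower mean than in WT, and the bile salt pump Abcb11 read lower on every ChLO array than on any WT array. The blood-side pump Abcc3 read higher on every ChLO array, and its relative Abcc4 on ChLO 1 and 2. Median differences were -0.98 for uptake carriers and -0.21 for synthesis enzymes (0.039 with spike-in scaling). Limma called 0 of the 33 genes at an adjusted p under 0.05, as it called 0% of all 12598 genes tested (smallest adjusted p 0.0528). At an unadjusted p under 0.05, 7 of the 33 were lower (Slc22a7, Slc10a1, Slco2b1, Slc51b, Abcb11, Fgfr4 and Klb), where 3.5% of all genes tested were, and 2 were higher (Abcc3 and Abcc4), where 5.46% of all genes were (8.96% in either direction). Among all genes these counts were 441 lower and 688 higher, and 179 and 1834 when the arrays were scaled to the hybridization spike-in controls. With that scaling 4 members were lower at that threshold. Groups did not overlap for 5 lower genes (Scp2, Slc10a1, Slc51b, Abcb11 and Fgfr4), against a background of 6.19%, and for 1 higher gene (Abcc3), against 9.04%. With spike-in scaling Abcb11 and Slc51b were the 2 lower genes without overlap, where all genes gave 278 lower and 2632 higher in place of 780 and 1139, and with quantile normalization Scp2 overlapped. Of the 9 hepatocyte markers tested, 6 were lower without overlap, so this was not particular to the members. The markers' count was 2 with quantile normalization and 1 with spike-in scaling. Slc51b had a ChLO mean under the filter level of 5.50, and without it 6 members were lower at an unadjusted p and 4 lower without overlap. Of the 33 differences 25 were below 0 with a median of -0.43, while 43.5% of all genes were below 0 with a median of 0.06. Spike-in scaling moved the median of all genes up by 0.25, after which 17 of the 33 were below 0. Relative to the median of all genes, the members' median was -0.49, or -0.28 with quantile normalization. The members' median was -0.18 without ChLO 1 and -0.66 without ChLO 3.

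**Figure D1:**
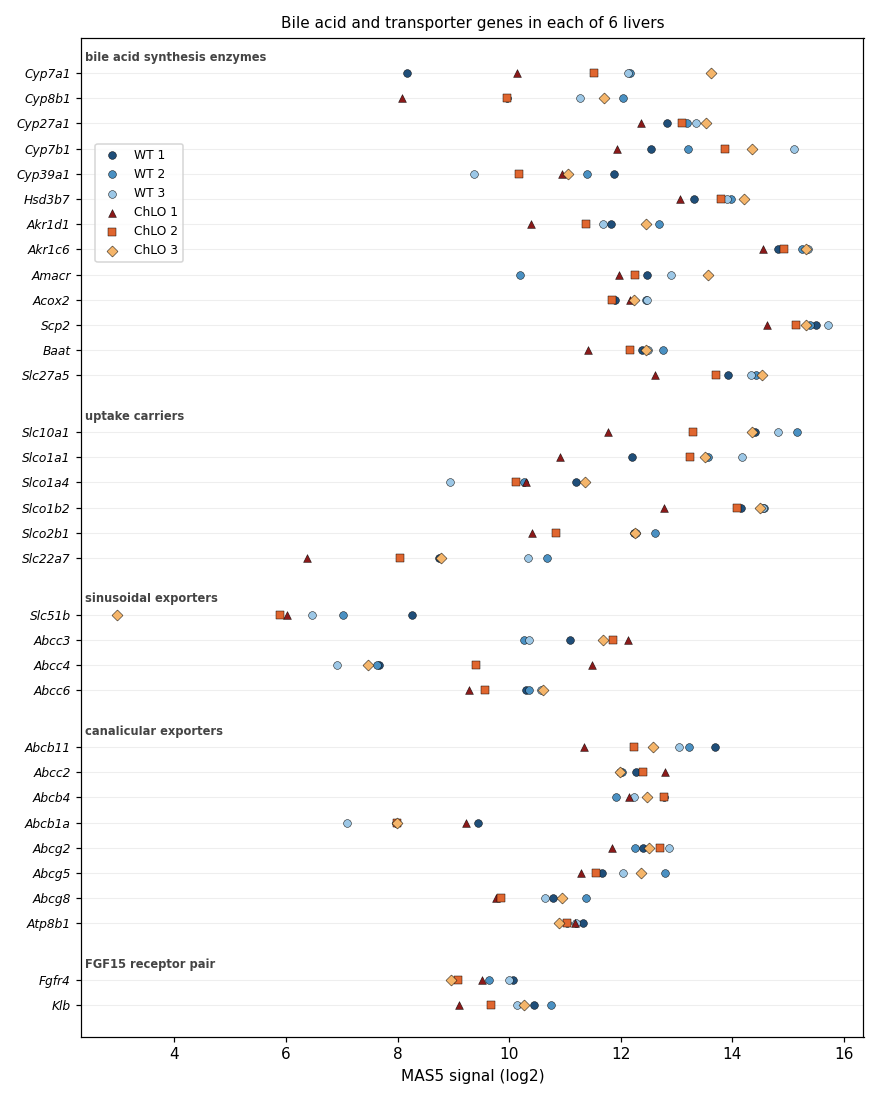
Log2 MAS5 signal (horizontal axis) of each of the 33 genes (rows, grouped by role) on each of the 6 arrays, with circles for WT 1 to 3, and a triangle, a square and a diamond for ChLO 1, 2 and 3. For Slc10a1 and Abcb11 all ChLO points lie left of all WT points, for Abcc3 all lie right, and for most synthesis enzymes the ChLO 1 triangle is at the low end and the ChLO 3 diamond among or above the WT circles.

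**Figure D2:**
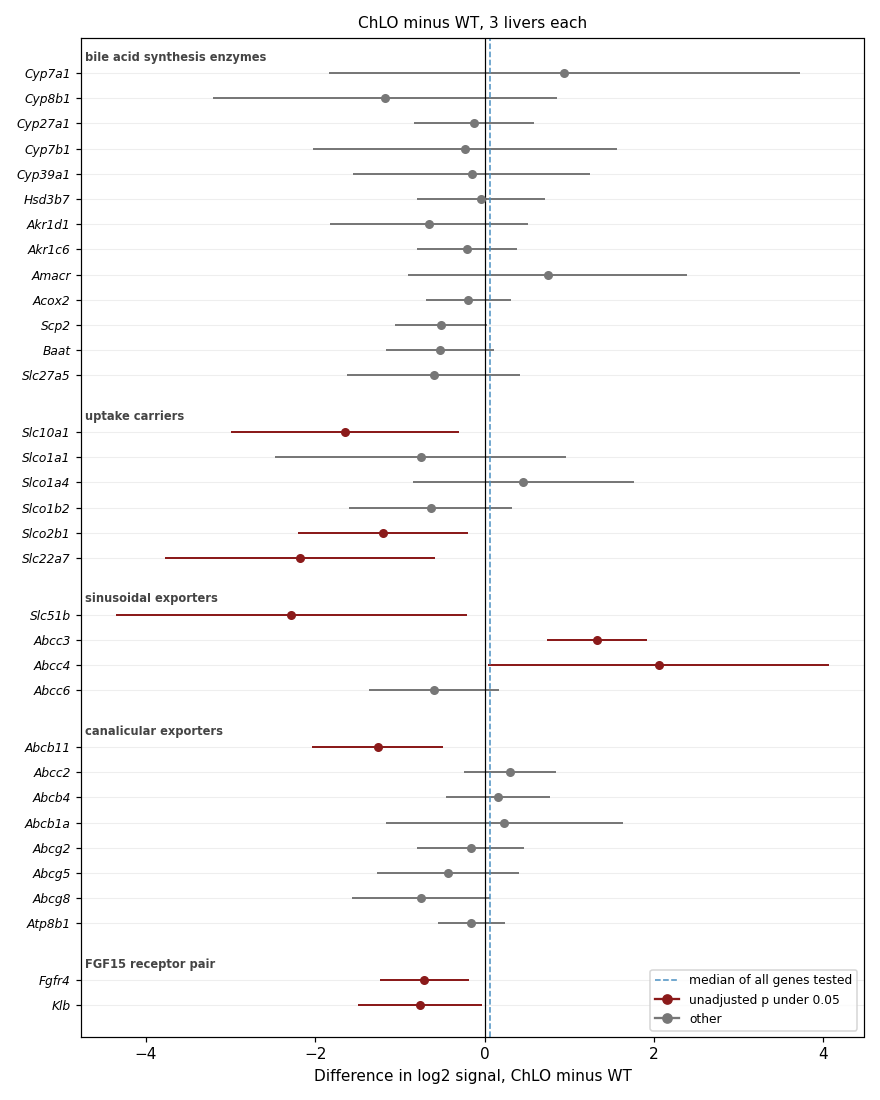
Difference in log2 signal, ChLO minus WT (horizontal axis), with the 95% confidence interval from limma for each gene (n = 3 livers per group), in dark red where the unadjusted p is under 0.05. The dashed line is the median of all genes tested, 0.06, and the intervals of Cyp7a1 (-1.83 to 3.71) and Cyp8b1 (-3.19 to 0.84) are among the wide ones.

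Among the 13 synthesis enzymes 11 differences were below 0, with a median of -0.21, and 0 had an unadjusted p under 0.05. With spike-in scaling 5 of the 13 were below 0, with a class median of 0.039, so the sign of small differences in this class depends on the scaling. The class median ran from -0.40 without ChLO 3 to -0.0997 without WT 3 when single arrays were left out, and was -0.0999 without ChLO 1. Cyp7a1, the rate-limiting enzyme of the classical route, read 8.16, 12.16 and 12.13 in WT 1, 2 and 3 and 10.14, 11.51 and 13.62 in ChLO 1, 2 and 3. WT 1 was thus the lowest of the 6 livers and ChLO 3 the highest. The WT livers alone spanned 16.0-fold in linear signal and the ChLO livers 11.2-fold, and the standard deviation within groups, 2.04, stood at percentile 99.7 of all genes tested. The difference was 0.94 (SE 1.20, 95% interval -1.83 to 3.71), and -0.39 without WT 1. A second probe set of Cyp7a1 differed by 1.05.

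Cyp8b1, which adds the hydroxyl group that makes cholic acid, read 9.96, 12.04 and 11.27 in WT and 8.08, 9.97 and 11.69 in ChLO. ChLO 1 was the lowest liver, ChLO 2 lay level with WT 1, and ChLO 3 was within the WT range. Its difference of -1.18 (SE 0.87) had an unadjusted p of 0.214, and it was -2.07 without ChLO 3 and -0.26 without ChLO 1. Its standard deviation within groups, 1.48, stood at percentile 98.5. For both enzymes, which set the amount and the kind of classical bile acids, livers of the same genotype lay further apart than the genotype means.

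In the alternative route and its branches the differences were closer to 0. Cyp27a1, the mitochondrial enzyme that opens the alternative route, was at 13.13 ± 0.26 in WT and 13.00 ± 0.59 in ChLO (SD, n = 3 each), with an interval of the difference from -0.82 to 0.57. Cyp7b1, which acts on the oxysterols of that route, read 12.55, 13.21 and 15.10 in WT and 11.93, 13.87 and 14.35 in ChLO. WT 3 held the highest value, and the difference of -0.23 (SE 0.77) was 0.51 without it. Cyp39a1, which acts on an oxysterol from brain, read 11.88, 11.40 and 9.36 in WT and between 10.18 and 11.05 in ChLO, all within the WT range. For Cyp27a1, Cyp7b1 and Cyp39a1 the difference was above 0 with spike-in scaling.

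Among enzymes that modify the sterol ring, Hsd3b7, which acts on the ring after the starting hydroxylation, was at 13.73 ± 0.37 in WT and 13.69 ± 0.59 in ChLO (SD, n = 3 each), with an interval from -0.79 to 0.70. Akr1d1, which reduces the ring, read 11.82, 12.69 and 11.68 in WT and 10.39, 11.37 and 12.44 in ChLO. Both ChLO 1 and ChLO 2 were below every WT liver and ChLO 3 was not (difference -0.66, SE 0.50, and -0.15 without ChLO 1). Akr1c6, an aldo-keto reductase that acts on steroids, had values of 14.82 to 15.36 in WT and 14.55 to 15.32 in ChLO, with a difference of -0.21 (SE 0.25) that was 0.039 with spike-in scaling.

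In side-chain shortening and conjugation, Scp2, whose longer product is the peroxisomal thiolase of the last cleavage, read 15.50, 15.40 and 15.71 in WT and 14.61, 15.14 and 15.31 in ChLO. All ChLO livers lay below all WT livers, by a margin of less than 0.1 between ChLO 3 and WT 2, and the difference was -0.52 (SE 0.23, limma unadjusted p = 0.0545), or -0.26 with quantile normalization. Its 3 other probe sets differed by -0.87, -0.32 and -0.08. Baat, which couples bile acids to taurine or glycine, read 12.38, 12.75 and 12.49 in WT and 11.42, 12.17 and 12.45 in ChLO, where ChLO 3 lay within the WT range (difference -0.53, SE 0.27, and -0.23 without ChLO 1). Slc27a5, the ligase that activates bile acids with coenzyme A before Baat, read 13.92, 14.43 and 14.33 in WT and 12.62, 13.71 and 14.54 in ChLO, so ChLO 3 was the highest of all 6 (difference -0.60, SE 0.44, and -0.0999 without ChLO 1). Acox2, the peroxisomal oxidase of the side chain, differed by -0.19 (SE 0.21), or 0.056 with spike-in scaling. Amacr, the racemase that prepares the side chain, was 1 of the 2 enzymes above 0, at 0.74 (SE 0.71). Its values were 12.47, 10.19 and 12.90 in WT and 11.97, 12.26 and 13.56 in ChLO, and the difference was -0.089 without WT 2, the low WT liver.

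Among uptake carriers 5 of 6 differences were below 0, also with spike-in scaling, where the class median was -0.73. On single arrays the class median, taken from each gene's mean in WT, was -2.18 for ChLO 1, -0.91 for ChLO 2 and -0.026 for ChLO 3, and the WT arrays lay between -0.33 and 0.24. The class median was -1.49 without ChLO 3 and -0.48 without ChLO 1.

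Slc10a1, the sodium-dependent carrier NTCP that takes up most conjugated bile acids, read 14.41, 15.16 and 14.82 in WT and 11.77, 13.30 and 14.36 in ChLO. The groups did not overlap, although ChLO 3 came within 0.1 of WT 1. Its difference was -1.65 (SE 0.58, 3.14-fold lower, limma unadjusted p = 0.0215 and adjusted p = 0.497), and a second probe set differed by -1.80. Without ChLO 3 it fell by 2.26 with a limma adjusted p of 0.0418, in a range of 0.0418 to 0.867 over the alternatives. Without ChLO 1 the difference was -0.96, and the unadjusted p was 0.0754 without WT 2 and 0.0537 without WT 3. The ChLO livers spanned 6.04-fold, against 1.68-fold in WT.

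Slc22a7, an organic anion carrier, showed the lowest difference of the uptake class. It read 8.75, 10.68 and 10.33 in WT and 6.38, 8.05 and 8.79 in ChLO. Only ChLO 3 reached the range of WT, just above WT 1, and the difference was -2.18 (SE 0.68, 4.53-fold lower, limma unadjusted p = 0.0130, adjusted p = 0.455). It lay between -2.76 and -1.50 when single arrays were left out, and the unadjusted p was 0.0564 without WT 2.

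Slco2b1, a carrier of steroid sulfates and drugs, read 12.24, 12.61 and 12.27 in WT and 10.42, 10.84 and 12.25 in ChLO. ChLO 1 and 2 were more than 1 log2 unit below WT and ChLO 3 lay inside the narrow WT range. The difference of -1.20 (SE 0.43, limma unadjusted p = 0.0232, adjusted p = 0.498) was matched by -1.14 in a second probe set past the filter, and without ChLO 3 it fell by 1.74 (limma adjusted p = 0.0135, in a range of 0.0135 to 0.867 over the alternatives). The unadjusted p was 0.0644 without ChLO 1, 0.0745 without ChLO 2 and 0.0775 without WT 2.

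The members of the Slco1 family, sodium-independent carriers of bile acids and other organic anions, did not share a direction. Slco1b2 read 14.15, 14.56 and 14.56 in WT and 12.77, 14.09 and 14.49 in ChLO, with a difference of -0.64 (SE 0.41), or -0.13 without ChLO 1. Of its other probe sets, the bright ones differed by -0.64 and -0.74, another by -1.31, and a dim one near the filter level by 0.44. Slco1a1, which is higher in male than in female mouse liver, read 12.19, 13.57 and 14.18 in WT and 10.91, 13.25 and 13.51 in ChLO, where ChLO 1 stood alone below WT (difference -0.76, SE 0.74, and 0.065 without ChLO 1). Slco1a4 read 11.20, 10.27 and 8.95 in WT and 10.31, 10.13 and 11.36 in ChLO, with a difference of 0.46 (SE 0.56) that was -0.14 without WT 3. The signals of WT 1 to 3 thus ran in opposite orders for Slco1a1 and Slco1a4.

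Of 4 sinusoidal exporters 2 differences were below 0 and 2 above, with a median of 0.36. Abcc3, a pump that sends conjugated bile acids and glucuronides to blood, read 11.09, 10.26 and 10.36 in WT and 12.12, 11.87 and 11.69 in ChLO. All ChLO livers were above all WT livers, and the ChLO values lay within 1.35-fold of each other. The difference was 1.32 (SE 0.25, 2.50-fold higher, limma unadjusted p = 7.89e-04, adjusted p = 0.221). It stayed between 1.17 and 1.58 over all 18 alternative settings, and without ChLO 3 it passed (1.43, limma adjusted p = 0.0423, in a range of 0.0231 to 0.678 over the alternatives).

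Abcc4, a pump of bile acids, sulfated steroids and nucleotides, read 7.66, 7.64 and 6.91 in WT and 11.49, 9.40 and 7.47 in ChLO. ChLO 1 was 4.08 above the WT mean, ChLO 2 lay above every WT liver too, and ChLO 3 lay inside the WT range. The mean difference of 2.05 (SE 0.86, limma unadjusted p = 0.0455, adjusted p = 0.549) was 3.04 without ChLO 3 (limma adjusted p = 0.0395, in a range of 0.0395 to 0.876 over the alternatives) and 1.04 without ChLO 1. The unadjusted p lay between 0.0738 and 0.124 when any array other than ChLO 3 was left out. Its order over the ChLO livers was the reverse of that of most members.

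Slc51b, a subunit of the organic solute transporter, was near the filter level. It read 8.26, 7.02 and 6.46 in WT and 6.02, 5.90 and 2.97 in ChLO. Groups did not overlap, the ChLO mean of 4.97 was under the filter level of 5.50, and the gene passed the filter through its WT values. The difference of -2.28 (SE 0.89, limma unadjusted p = 0.0340) was -1.29 without ChLO 3, whose value was far under the filter level. The unadjusted p was 0.0590 with spike-in scaling, 0.126 without WT 1, 0.0662 without WT 2 and 0.0508 without ChLO 3. Its partner subunit Slc51a read 5.65 to 7.18 in WT and 5.82 to 6.38 in ChLO.

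Abcc6, which releases ATP from hepatocytes, had a tight WT group at 10.31, 10.36 and 10.58 and read 9.28, 9.56 and 10.60 in ChLO. ChLO 1 and 2 were below every WT liver and ChLO 3 was just above them (difference -0.60, SE 0.33). Without ChLO 3 it fell by 0.99 (limma adjusted p = 0.0466, in a range of 0.0466 to 0.888 over the alternatives), and without ChLO 1 the difference was -0.33.

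Of the 8 canalicular genes 5 were below 0 (3 with spike-in scaling), with a median of -0.16 (0.088 with spike-in scaling), and 1, the bile salt pump, had an unadjusted p under 0.05. Abcb11, the bile salt export pump, read 13.69, 13.22 and 13.05 in WT and 11.35, 12.24 and 12.59 in ChLO. Every ChLO liver was below every WT liver. The difference was -1.26 (SE 0.33, 2.40-fold lower, limma unadjusted p = 0.00503, adjusted p = 0.404), and it ranged from -1.53 to -0.91 over the alternatives with an unadjusted p under 0.05 in all 18 and an adjusted p of 0.0398 to 0.790.

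The sterol transporters Abcg5 and Abcg8, whose products form a single pump that exports cholesterol into bile, followed each other over the arrays. Abcg5 read 11.67, 12.79 and 12.03 in WT and 11.29, 11.55 and 12.36 in ChLO. Abcg8 read 10.79, 11.38 and 10.64 in WT and 9.76, 9.86 and 10.94 in ChLO. In both, WT 2 was the highest liver, ChLO 1 and ChLO 2 lay below all WT livers and ChLO 3 lay within the WT range. The differences were -0.43 (SE 0.36, and -0.12 without WT 2) for Abcg5 and -0.75 (SE 0.35, limma unadjusted p = 0.0616) for Abcg8.

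Each of the other 5 canalicular genes had an unadjusted p above 0.05. Abcc2, which exports bilirubin conjugates, read 12.28, 12.03 and 11.98 in WT and 12.80, 12.40 and 11.98 in ChLO, with a difference of 0.30 (SE 0.23, and 0.097 without ChLO 1). Abcb4, which moves phosphatidylcholine into bile, was at 12.30 ± 0.43 in WT and 12.46 ± 0.31 in ChLO (SD, n = 3 each), with an interval from -0.45 to 0.76. Atp8b1, a phospholipid flippase that protects the canalicular membrane, had the smallest spread of all members (within-group SD 0.14) and a difference of -0.16 (SE 0.16), or 0.092 with spike-in scaling. Abcg2, a pump of sulfate conjugates and urate, read 12.26 to 12.87 in WT and 11.84 to 12.70 in ChLO (difference -0.16, SE 0.27, and 0.085 with spike-in scaling). Abcb1a, the drug pump P-glycoprotein, read 9.43, 7.98 and 7.10 in WT and 9.23, 7.98 and 7.99 in ChLO (difference 0.23, SE 0.60).

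Upstream sequence is shown for Abcb11 and Abcc4, which differed in opposite directions, for Cyp8b1, and for the stretch between the start sites of Abcg5 and Abcg8, which are transcribed away from each other. The sequences are from RefSeq on GRCm38.p6, whose promoter table held 23 of the 33 genes. Capitals mark matches, on either strand, to the E-box CACGTG bound by ChREBP and other factors, to the nuclear receptor half-site AGGTCA, to the antioxidant response core TGACNNNGC, to the HNF4 site CAAAGTCCA, and to the FXR inverted repeat (GGTCA, any base, TGACC), which can overlap a half-site. Abcb11 is on the minus strand at chr2:69342617-69342866, Abcc4 on the minus strand at chr14:118706220-118706469, Cyp8b1 on the minus strand at chr9:121916306-121916555, each 250 bases ending just before the start site, and the 109 bases between Abcg5 and Abcg8 lie at chr17:84683012-84683120, printed in the sense of Abcg8 and without a match.
Abcb11: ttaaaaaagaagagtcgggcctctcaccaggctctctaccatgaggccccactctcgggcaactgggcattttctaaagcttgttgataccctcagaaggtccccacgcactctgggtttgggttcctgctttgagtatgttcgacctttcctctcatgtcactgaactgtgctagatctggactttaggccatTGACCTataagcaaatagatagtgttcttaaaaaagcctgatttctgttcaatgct
Abcc4: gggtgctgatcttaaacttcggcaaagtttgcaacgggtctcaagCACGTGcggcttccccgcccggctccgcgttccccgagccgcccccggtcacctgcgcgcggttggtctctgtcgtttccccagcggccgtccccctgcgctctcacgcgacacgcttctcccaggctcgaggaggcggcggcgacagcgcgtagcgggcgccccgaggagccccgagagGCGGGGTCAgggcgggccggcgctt
Cyp8b1: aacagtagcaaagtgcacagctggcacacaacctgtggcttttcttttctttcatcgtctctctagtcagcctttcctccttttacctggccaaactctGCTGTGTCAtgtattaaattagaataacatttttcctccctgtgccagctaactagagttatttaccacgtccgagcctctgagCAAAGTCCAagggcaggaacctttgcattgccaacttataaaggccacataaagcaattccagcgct
Abcg5-Abcg8: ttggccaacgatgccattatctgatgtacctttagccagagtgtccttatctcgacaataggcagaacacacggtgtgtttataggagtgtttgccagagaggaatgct
In the 250 bases upstream the half-site was found in 9 of the 23 genes (Abcb11, Abcc2, Abcg2, Akr1d1, Scp2, Slc10a1, Slc51b, Slco1a1 and Slco1b2), against 15.8% of 27025 genes with such a window. The E-box was found in Abcc4 alone (6.86% of all genes), the antioxidant core in 5 of the 23 (11.5% of all genes), namely Abcc2, Abcc4, Acox2, Cyp8b1 and Klb, and the HNF4 site in Cyp8b1 alone (0.451% of all genes). The FXR repeat, searched only as an exact match, was in none of the 23, that is 0, and in 0.0407% of all genes. Near matches were not counted, such as ggccatTGACC in the Abcb11 window, which has c where the repeat has T. The counts are of letter matches in a short window and say nothing of binding.

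Fgfr4 and Klb, the receptor and co-receptor that carry the FGF15 signal to hepatocytes, had lower means in ChLO. Fgfr4 read 10.07, 9.64 and 9.99 in WT and 9.52, 9.08 and 8.96 in ChLO. The groups did not overlap, and ChLO 3 was the lowest liver, unlike for most members. The difference was -0.71 (SE 0.22, 1.64-fold lower, limma unadjusted p = 0.0126, adjusted p = 0.455), and 3 other probe sets past the filter differed by -0.93, -0.88 and -0.01. Klb read 10.44, 10.75 and 10.14 in WT and 9.10, 9.68 and 10.27 in ChLO, where ChLO 3 lay within the WT range (difference -0.76, SE 0.31, limma unadjusted p = 0.0406, and -0.47 without ChLO 1). Fgfr4 groups overlapped with spike-in scaling and with arrays set to equal medians. With spike-in scaling the limma unadjusted p was 0.0960 for Fgfr4 and 0.123 for Klb. Klb also had an unadjusted p above 0.05 with eBayes without a trend and without ChLO 1, ChLO 2, WT 1 or WT 2.

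Members differed in how the ChLO livers were ordered. ChLO 1 was the lowest ChLO liver for 23 of 33 genes (69.7%, against 34.2% of all genes tested) and ChLO 3 the highest for 24 (72.7%, against 39.2%). The full order from ChLO 1 up to ChLO 3 held for 21 (63.6%, against 25.2%), including 11 of 13 synthesis enzymes and 5 of 6 uptake carriers. The reverse order held for 6 (18.2%, against 27.5%), among them Abcc3, Abcc4, Slc51b and Fgfr4. ChLO 1 lay below every WT liver for 22 genes, ChLO 2 for 17 and ChLO 3 for 7, and ChLO 3 lay above every WT liver for 8, of which 5 were synthesis enzymes. The same counts were not made over all genes tested, so these have no background and cannot be read as a trait of the members. Of the ChLO livers ChLO 1 also had the smallest Actb gap, and its part in the order of the ChLO livers was not tested.

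**Figure D3:**
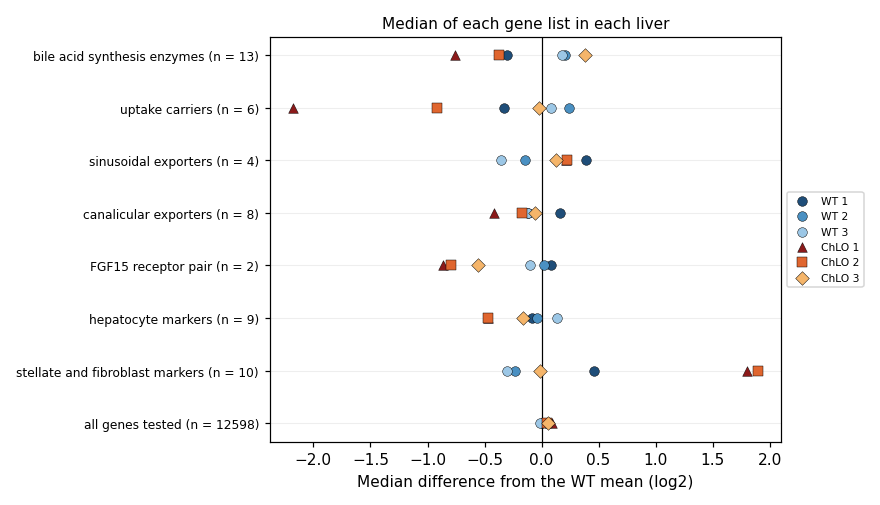
Median difference from the WT mean (log2, horizontal axis) of each class of genes, of hepatocyte markers, of stellate cell and fibroblast markers and of all genes tested, on each of the 6 arrays. Uptake carriers stand at -2.18 and -0.91 in ChLO 1 and 2 and at -0.026 in ChLO 3, hepatocyte markers at -0.47, -0.47 and -0.16, and all genes tested near 0 on every array.

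The differences depended on which ChLO livers were counted. Without ChLO 3 limma called 301 of 12587 genes (2.39%, of which 0.802% lower and 1.59% higher), and 6 of the 33 were among them. Slc10a1, Slco2b1, Abcc6 and Abcb11 fell and Abcc3 and Abcc4 rose in that fit, all of them transporters, and 0 of 13 synthesis enzymes passed, of which 5 were lower at an unadjusted p under 0.05 (background 8.02%). In the same fit 6 of 10 stellate cell and fibroblast markers rose, as did 3 of 9 myeloid, 1 of 6 cholangiocyte and 1 of 6 endothelial markers. Of 9 hepatocyte markers 1 fell. The part of these marker shifts in the members' calls was not tested. Across the membranes the 6 called members were 2 uptake carriers, 3 sinusoidal exporters and 1 canalicular exporter. Without ChLO 1 it called 3 of all genes (0.0238%) and 0 of the 33, and without ChLO 2 0 of all genes. Abcc3 kept a difference of at least 1.17 and Abcb11 of at most -0.91 whichever array was left out.

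**Figure D4:**
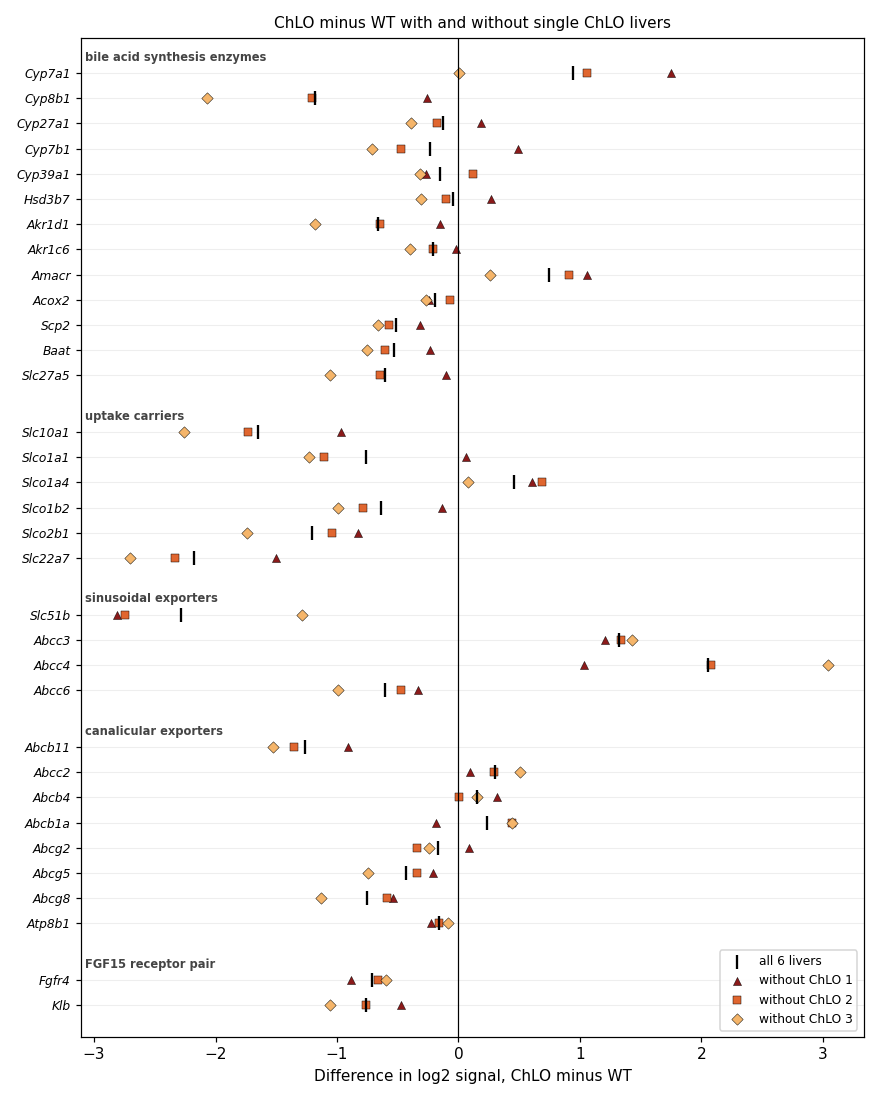
Difference in log2 signal, ChLO minus WT (horizontal axis), of each gene with all 6 livers (black bar) and without ChLO 1 (triangle), ChLO 2 (square) or ChLO 3 (diamond). Slc10a1 goes from -1.65 to -2.26 without ChLO 3, Abcc4 from 2.05 to 3.04, and Abcc3 stays close to 1.32.

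Genes that sense bile acids and control these pathways were lower in 12 of 13 tested, with a median of -0.35. With spike-in scaling 9 were lower, with a median of -0.099. Of all genes tested 43.5% were lower, or 21.2% with spike-in scaling. Hepatocyte markers were lower in 9 of 9, with a median of -0.36. At a limma unadjusted p under 0.05, 2 of the 13 were lower, where 3.5% of all genes were. That count was 1 with spike-in scaling, with eBayes without a trend, and when any array other than ChLO 3 was left out. It was 7 without ChLO 3. Nr0b2, the repressor SHP and a target of FXR, read 11.49, 11.60 and 11.92 in WT and 10.43, 10.76 and 11.09 in ChLO, with no overlap (difference -0.91, SE 0.22, limma unadjusted p = 0.00312, adjusted p = 0.325). Ppargc1a, a coactivator, differed by -0.80 (SE 0.31, limma unadjusted p = 0.0343), Hnf4a, a master factor of hepatocytes, by -0.36 (SE 0.18) and Nr1i2, the xenobiotic receptor PXR, by -0.35 (SE 0.21). Nr1h4, the bile acid receptor FXR, read 11.24, 11.91 and 11.98 in WT and 10.56, 11.17 and 11.94 in ChLO.

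Other enzymes that modify bile acids and steroids had 8 of 12 differences below 0 (4 with spike-in scaling), a median of -0.12 and a mean of 0.060, of opposite sign. Of all genes tested 43.5% were below 0, or 21.2% with spike-in scaling. Hsd11b1, a steroid dehydrogenase, read 14.84, 15.07 and 14.92 in WT and 13.53, 13.93 and 14.67 in ChLO (difference -0.90, SE 0.29, limma unadjusted p = 0.0142). Cyp2b10, a cytochrome induced through the receptor CAR, was dim in WT at 6.16, 7.99 and 4.44 and read 9.08, 8.07 and 7.19 in ChLO (difference 1.91, SE 0.87). Ch25h, which makes an oxysterol, differed by 1.26 (SE 0.59), and Abcd3, a peroxisomal transporter of bile acid precursors, by -0.65 (SE 0.33). Of 11 other transporters tested, whose cell type was not tested, 6 were below 0 (4 with spike-in scaling), with a median of -0.12. Abcc1, a relative of Abcc3 and Abcc4, read 6.87, 6.72 and 6.61 in WT and 8.95, 7.90 and 6.95 in ChLO, with no overlap (difference 1.20, SE 0.48, limma unadjusted p = 0.0386). ChLO 3 lay just above WT 1, and 9.04% of all genes were higher without overlap. The Abcc1 groups overlapped with quantile normalization and with arrays set to equal medians. Its unadjusted p was above 0.05 with the mean of all its probe sets and when any array other than ChLO 3 was left out. Abcb10, a mitochondrial transporter, differed by -0.57 (SE 0.18, limma unadjusted p = 0.0126), Slc29a1, a nucleoside carrier, by -0.42 (SE 0.21), and Aqp8, a water channel of the canalicular membrane, by -0.83 (SE 0.48).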

How the data were processed

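Per the labels, liver RNA of 6 mice was converted to biotin-labelled cRNA and hybridized, 1 mouse per Affymetrix array. The authors deposited log2 signals of 45101 probe sets, and the submitters' processing notes name MAS5. The linear signals have the same 2% trimmed mean on every array, about 500 (499.8), which hides a change shared by most transcripts. Genome build, detection calls and scanner files were not used here. Probe sets were named by the platform annotation. Controls and probe sets with a mean below the 40th percentile (log2 5.50) were left out. Genes were tested with limma 3.58.1 in R 4.3.3 (lmFit, eBayes with trend, no block), with Benjamini-Hochberg adjustment over all genes, a threshold of 0.05, and SE and 95% intervals from the same fit. Precision is limited by 3 arrays per group. The procedure was tested on simulated data. Of 11 genes with several probe sets past the filter, all probe sets had the sign of the chosen one in 10, Slco1b2 being the exception.

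The members and the gene lists were chosen with earlier results of these data known. All 33 members are named, and of each related list the up to 4 genes with the smallest p. Nr1h4, Slc51a, Cldn4, Cldn7 and Krt19 were added after their values were seen.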

Additional observations from a re-analysis of the deposited data

How the results depend on the processing

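The 18 alternatives kept the sign of every difference for 19 of the 33 genes, and of the differences of single genes under each alternative 552 kept sign and side of the adjusted threshold, 29 turned sign and 11 passed it. Over all genes, the calls at an adjusted p under 0.05 went from 0 to 7 with log2(linear signal + 32), 3 with no filter, 568 with array weights, 3 without probe sets of several transcripts, and between 0 and 301 when single arrays were left out. At an unadjusted p they went from 1129 to 2013 with spike-in scaling, 3137 with array weights, and between 688 and 2577 when single arrays were left out. Of the 33, 5 were called with array weights and between 0 and 6 when arrays were left out. Lower at an unadjusted p were 4 with spike-in scaling, 12 with array weights and between 2 and 15 when arrays were left out. Higher were 1 with the 60th percentile filter, 1 with eBayes without a trend and between 1 and 3 when arrays were left out. Same-numbered WT and ChLO arrays deviated from their group means with correlations of 0.30, -0.17 and 0.063. The labels give no pairing or batch, and whether same-numbered arrays share one was not tested. With the replicate number as a block 1 gene of all passed and 13 of the 33 were lower at an unadjusted p.

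The canalicular median was 0.088 with spike-in scaling and the sinusoidal median 1.32 with the 60th percentile filter, which leaves out Slc51b; leaving out probe sets of several transcripts leaves Abcc2 untested. The uptake median lay between -1.49 and -0.48 when arrays were left out. Signs turned with spike-in scaling, which adds 0.25 to every difference, for Cyp27a1 (0.12), Cyp7b1 (0.017), Cyp39a1 (0.10), Hsd3b7 (0.20), Akr1c6 (0.039), Acox2 (0.056), Abcg2 (0.085) and Atp8b1 (0.092), for Hsd3b7 with quantile normalization (0.060) and array weights (0.0087), and for Abcg2 with array weights (0.064). When arrays were left out in turn, the range was -0.39 to 1.75 for Cyp7a1, -0.39 to 0.19 for Cyp27a1, -0.77 to 0.51 for Cyp7b1, -0.91 to 0.35 for Cyp39a1, -0.31 to 0.27 for Hsd3b7, -0.089 to 1.27 for Amacr, -1.32 to 0.065 for Slco1a1, -0.14 to 0.99 for Slco1a4, -0.040 to 0.39 for Abcb4, -0.30 to 0.86 for Abcb1a and -0.34 to 0.090 for Abcg2. The causes were not tested.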
